A study of Homo sapiens with 4 samples.

Results

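PCDH7, PDE4B, PALLD, PHLDB2, VTI1A, PPP3CA, ZBTB20, DST, MPP7 and ARHGAP29 are 10 long human genes, each of which carried a dense series of BRD8 peaks in HCT116 cells. They are 10 of 19974 protein-coding genes on chromosomes 1 to 22 and X, and they were chosen by their number of HCT116 peaks. A peak was assigned to a gene when its summit, the position of highest signal, lay inside the gene or within 1 kb of either end. The counts in HCT116 are therefore a description of how the genes were selected. The SW480 list was not part of the rule, but the genes were chosen with earlier results of these data known. Their SW480 counts may therefore not be free of the choice. ARHGAP29 is the shortest at 146 kb, and 2120 coding genes were at least as long. Of these long genes 12, or 0.566%, held at least 24 HCT116 peaks, the count in ARHGAP29. The others were NSMCE2, with 56 HCT116 and 12 SW480 peaks, and DLGAP1, with 29 and 15. Both had more SW480 peaks than any of the 10 genes. MSRB3 and MYOF came next with 21 HCT116 peaks each.

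BRD8 chromatin immunoprecipitation sequencing (ChIP-seq) was done in 2 established human lines from colorectal cancer, HCT116 and SW480, kept in McCoy's 5A and Leibovitz's L-15 medium with serum, neither of them given a drug or genetic change in the labels. Cells of both lines were fixed with formaldehyde, chromatin was cut with micrococcal nuclease, and a polyclonal BRD8 antibody was used. There was 1 ChIP library for each line, with an input library that was not analysed here, so the lines are described side by side without a test or replicates. The 95% intervals describe the error of counting alone. The HCT116 list had 22303 peaks on chromosomes 1 to 22 and X, of 22312 deposited, with a median fold enrichment of 3.70, and the SW480 list had 12874 of 12946 with a median of 3.34. Fold enrichment is the authors' own value for the summit, the ChIP signal over the caller's local background, and it ranks peaks within 1 list. A gene without a listed peak had no region past the q threshold of 0.05, which does not show that BRD8 was absent.

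BRD8 is a bromodomain subunit of the TIP60/NuA4 complex, which acetylates histones and exchanges histone variants in nucleosomes. The complex is best known at promoters and at enhancers, regulatory elements that often lie inside the introns of long genes. The 10 genes act in different parts of the cell: PCDH7 is a cell adhesion protein, PALLD, DST and PHLDB2 organise the cytoskeleton, MPP7 is a polarity scaffold, and ARHGAP29 is a GTPase-activating protein. PDE4B and PPP3CA act in cAMP and calcium signalling, VTI1A in membrane fusion and ZBTB20 in transcription.

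Annotated start sites of these genes were with or without a HCT116 summit within 1 kb, and windows of 300 bases around 6 of the starts show both cases. The sequences are from RefSeq (GRCh38.p14), run from 250 bases before a start to 50 after it, and are printed 5′ to 3′ on the strand of the gene, with letters of a searched motif in capitals. The single PCDH7 start, chr4:30720119-30720418 on the plus strand, had no summit within 1 kb in either line. The PDE4B start inside its run of peaks is at chr1:66331858-66332157 (plus), under a HCT116 peak of fold 5.67. The PALLD starts inside the gene are at chr4:168631328-168631627 and chr4:168831845-168832144 (plus), under HCT116 peaks of fold 4.48 and 4.68. The PHLDB2 window at chr3:111858930-111859229 (plus) had a HCT116 summit of fold 2.71 and a SW480 summit of fold 3.69 within 1 kb. The ZBTB20 window at chr3:114624896-114625195 (minus) lay under a HCT116 peak of fold 5.87. In the PALLD windows the capitals mark GGAATG, read on either strand, and TGANTCA, and in the ZBTB20 window they mark TGANTCA.
PCDH7: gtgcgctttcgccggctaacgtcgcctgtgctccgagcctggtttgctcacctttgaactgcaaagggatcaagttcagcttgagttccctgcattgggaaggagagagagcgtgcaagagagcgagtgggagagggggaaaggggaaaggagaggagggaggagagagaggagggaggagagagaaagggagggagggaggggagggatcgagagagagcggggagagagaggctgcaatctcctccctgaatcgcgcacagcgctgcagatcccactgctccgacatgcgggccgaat
PDE4B: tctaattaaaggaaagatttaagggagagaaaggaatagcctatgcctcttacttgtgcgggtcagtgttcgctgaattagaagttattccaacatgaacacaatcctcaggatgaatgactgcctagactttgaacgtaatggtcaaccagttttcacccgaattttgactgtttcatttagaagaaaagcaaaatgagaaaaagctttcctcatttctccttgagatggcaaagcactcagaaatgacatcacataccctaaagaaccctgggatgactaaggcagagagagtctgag
PALLD first inner start: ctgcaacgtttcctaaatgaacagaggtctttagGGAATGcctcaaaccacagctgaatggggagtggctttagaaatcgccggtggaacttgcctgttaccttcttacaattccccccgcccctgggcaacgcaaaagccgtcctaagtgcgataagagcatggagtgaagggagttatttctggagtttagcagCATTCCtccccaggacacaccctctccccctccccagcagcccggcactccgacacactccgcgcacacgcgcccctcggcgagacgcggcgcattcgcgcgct
PALLD second inner start: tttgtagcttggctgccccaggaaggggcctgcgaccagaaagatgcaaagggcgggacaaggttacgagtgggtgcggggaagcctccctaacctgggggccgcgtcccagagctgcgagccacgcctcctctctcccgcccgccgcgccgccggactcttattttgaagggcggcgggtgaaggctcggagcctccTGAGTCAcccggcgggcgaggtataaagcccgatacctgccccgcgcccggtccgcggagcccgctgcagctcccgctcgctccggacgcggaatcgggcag
PHLDB2: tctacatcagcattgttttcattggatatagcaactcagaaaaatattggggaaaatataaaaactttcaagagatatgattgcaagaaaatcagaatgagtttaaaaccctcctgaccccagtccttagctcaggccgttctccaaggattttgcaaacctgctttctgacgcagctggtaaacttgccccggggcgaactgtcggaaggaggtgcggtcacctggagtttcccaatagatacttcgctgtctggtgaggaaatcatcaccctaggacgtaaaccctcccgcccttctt
ZBTB20: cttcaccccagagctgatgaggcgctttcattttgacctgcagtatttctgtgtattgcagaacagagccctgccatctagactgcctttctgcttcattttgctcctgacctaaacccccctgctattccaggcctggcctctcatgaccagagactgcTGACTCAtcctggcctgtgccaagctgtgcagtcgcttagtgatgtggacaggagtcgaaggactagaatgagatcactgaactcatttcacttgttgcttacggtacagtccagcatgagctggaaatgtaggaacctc

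The guanine and cytosine content of these windows was 60.3% for PCDH7, 40.3% for PDE4B, 58.0% and 69.3% for PALLD, 45.7% for PHLDB2 and 50.7% for ZBTB20. Over the 30 windows of 9 of the genes the median was 48.7%, and over all 34961 windows of the RefSeq table it was 58.7%. PPP3CA had no entry in that table. By letters searched on both strands, TGANTCA (the AP-1 motif) was in 5 of the 30 windows, from DST, PALLD and ZBTB20, and in 7.68% of all windows. GGAATG (TEAD) was in 5 of 30, from DST, MPP7, PALLD and ZBTB20, and in 14.0% of all. CACGTG (E-box) was in 1 of 30, from DST, and in 7.27% of all, while TGACGTCA (CRE) and CCGGAAGT (ETS) were in none of the 30 and in 1.85% and 4.14% of all. These matches describe letters in the windows and not binding sites.

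In HCT116 the 10 genes together held 421 peaks, 1.89% of the list, and in SW480 they held 15, or 0.117%. With the HCT116 list shortened to its strongest 12874 peaks, the length of the SW480 list, the HCT116 count was 154, and at a −log10 q of at least 5 the counts were 128 and 2. The HCT116 counts ran from 24 in ARHGAP29 to 113 in PCDH7, with a median of 34.5, and PCDH7 alone held 26.8% of the 421. In SW480, PHLDB2 held 11 peaks, ZBTB20 held 2, VTI1A and MPP7 held 1 each, and the remaining 6 genes held none. Over the 2120 long coding genes, 55.1% held at least 1 HCT116 peak and 40.2% at least 1 SW480 peak, so the 4 of 10 with a SW480 peak matched the share among long genes. At least 10 SW480 peaks were found in 2.55% of long genes, of which PHLDB2 was 1.

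**Figure D1:**
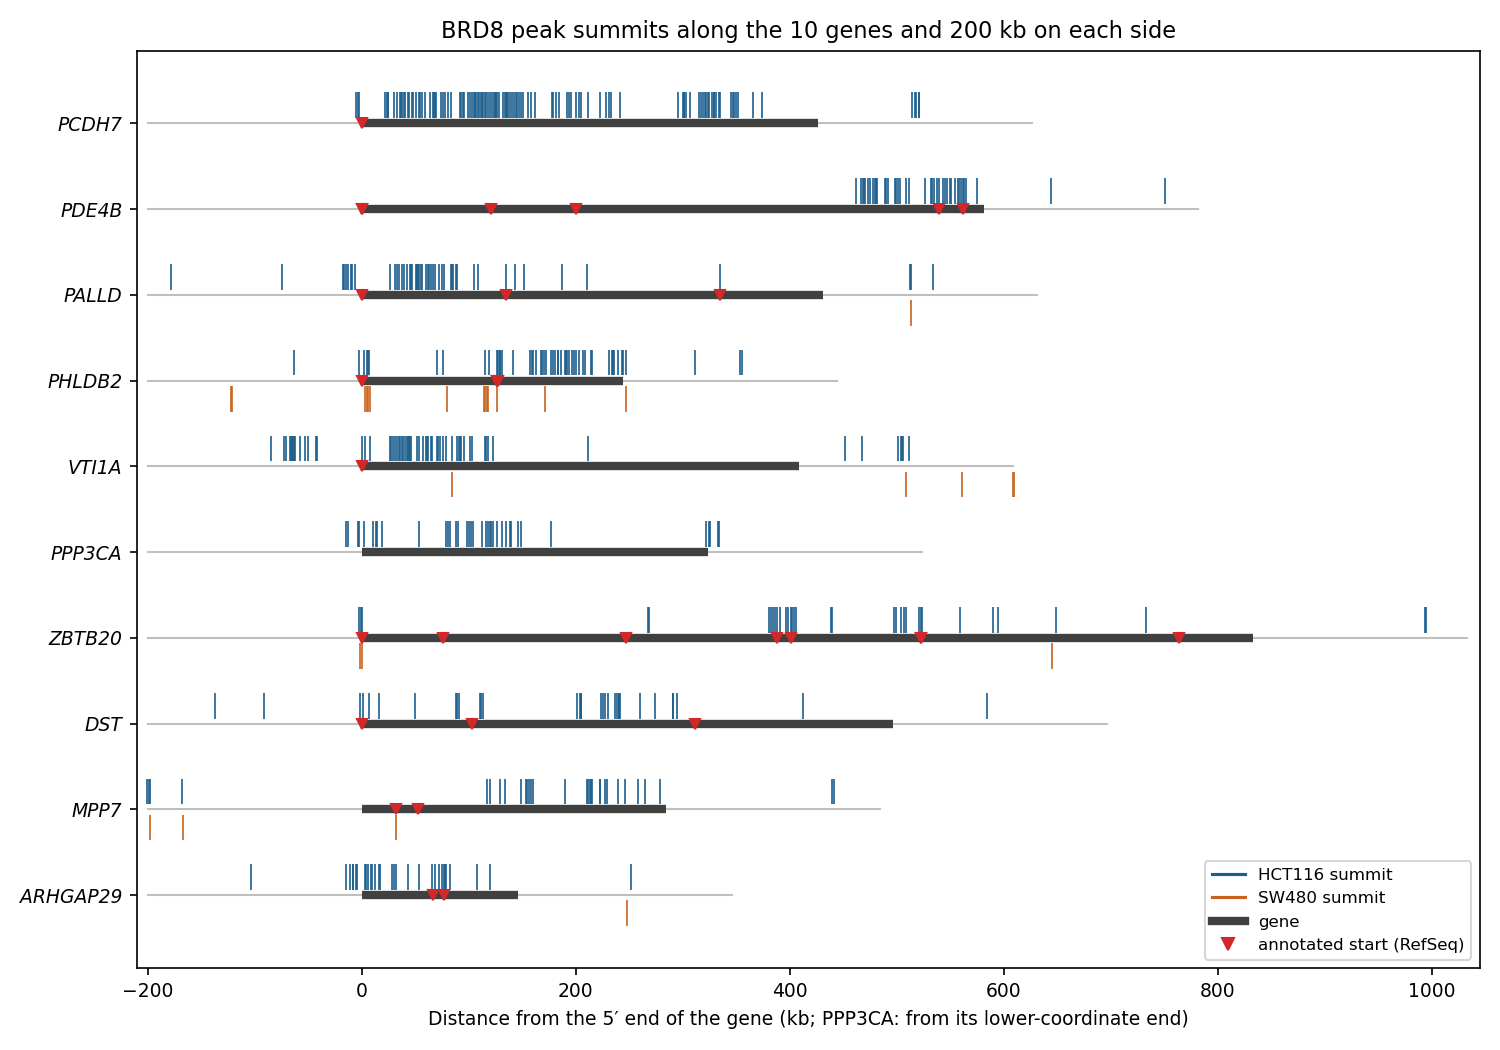
Each row is a gene drawn from its 5′ end (PPP3CA from its lower-coordinate end) with 200 kb on each side, on an axis in kb. Ticks above the bar are HCT116 summits, ticks below are SW480 summits and triangles are annotated starts. The 421 HCT116 summits gather in part of each gene, and 11 of the 15 SW480 summits are in PHLDB2.

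Per length, PCDH7 was the most densely covered gene in HCT116, at 26.4 peaks per 100 kb (95% exact Poisson interval 21.7 to 31.7). PHLDB2 followed at 19.1 (14.0 to 25.4) and ARHGAP29 at 16.3 (10.4 to 24.2), and the intervals of these neighbours in the order overlapped. VTI1A stood at 10.7 (7.79 to 14.4), PPP3CA at 9.51 (6.46 to 13.5), PALLD at 8.77 (6.20 to 12.03) and MPP7 at 8.73 (5.65 to 12.9), all within one another's intervals. PDE4B had 6.68 (4.75 to 9.13), DST 5.81 (3.89 to 8.35) and ZBTB20, the longest gene at 833 kb, 3.71 (2.52 to 5.27). The 10 genes together had 10.03 peaks per 100 kb, and the 200 kb on each side of them had 77 peaks, or 1.93 per 100 kb, a ratio of 5.21 (4.08 to 6.74). The ratio was 3.34 with flanks of 100 kb and 3.39 for peaks with a −log10 q of at least 5, both outside that interval. The genes were chosen for their HCT116 peaks, so a ratio above 1 follows from the choice. The interval treats peaks as independent, although they gather in runs. Each of the 10 was denser inside than in each of its flanks. The same held for 83.3% of the 36 long coding genes with at least 10 HCT116 peaks, a set that includes the 10. In SW480 the densities were 0.36 inside and 0.30 in the flanks, a ratio of 1.19 (0.52 to 2.79), and it was 0.405 without PHLDB2.

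**Figure D2:**
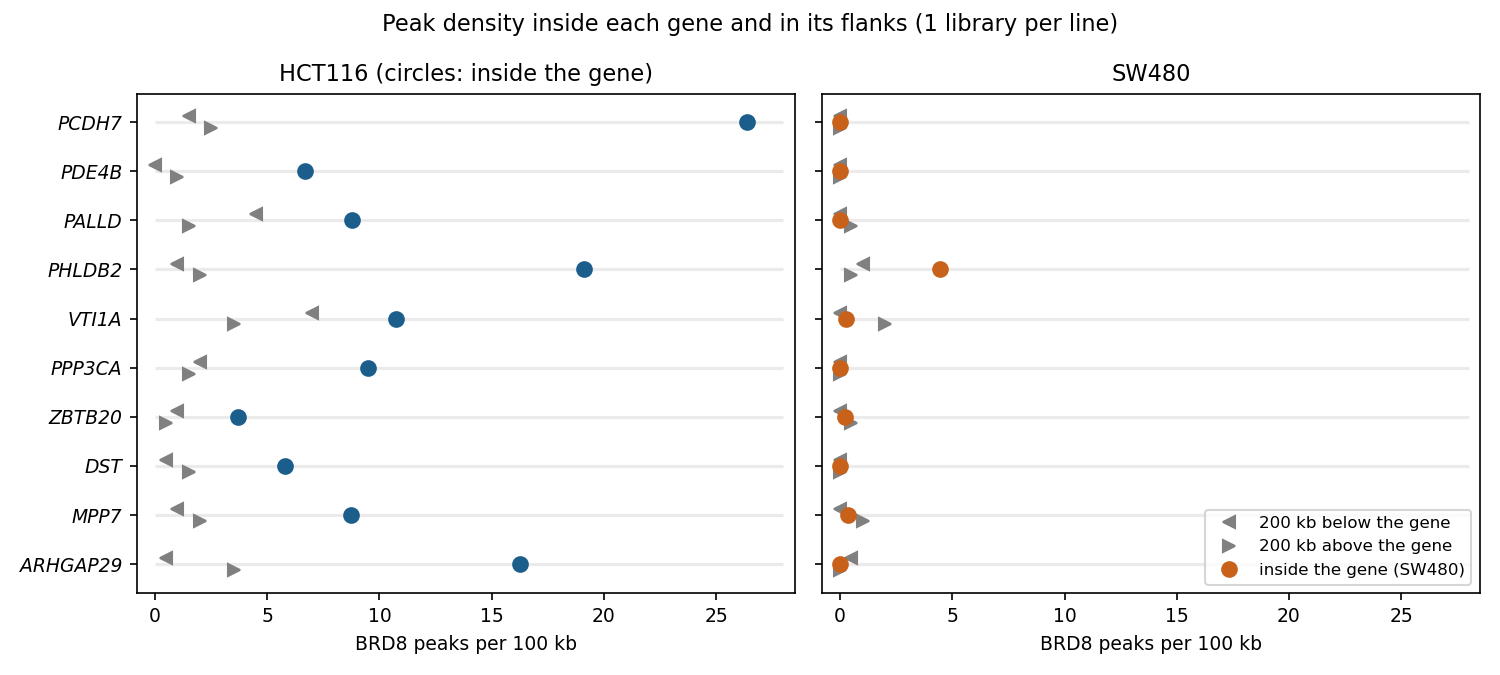
BRD8 peaks per 100 kb (x axis) for each gene, in HCT116 on the left and SW480 on the right. Circles give the gene with 1 kb margins and triangles the 200 kb on either side; in HCT116 every circle lies to the right of its triangles, from 3.71 in ZBTB20 to 26.4 in PCDH7, and in SW480 PHLDB2 is the only circle above 1 peak per 100 kb.

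Neighbouring summits lay close together inside the genes. The median of 411 spacings was 2.17 kb, and 78.3% of them were under 5 kb. Over the whole HCT116 list the median was 14.6 kb and 39.1% were under 5 kb. Short spacings follow in part from choosing genes by their number of HCT116 peaks. The whole list also includes distances between genes, and spacings in other long genes with many peaks were not compared. By gene the median spacing ran from 1.74 kb in PCDH7 to 4.42 kb in MPP7. When summits up to 25 kb apart were chained, 15 chains with at least 5 summits in a gene held 387 of the 421 peaks, or 91.9%. The density within these chains ran from 16.9 to 47.1 peaks per 100 kb, and the density over whole genes from 3.71 to 26.4. The chaining distance itself sets a floor on the former.

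PCDH7, a delta protocadherin that mediates contact between cells, lies on the plus strand at chr4:30720369-31146800. It held 113 peaks in HCT116 and none in SW480. The nearest SW480 summits were 4806 kb before its start and 7518 kb beyond its 3′ end, so the stretch without a SW480 peak reached far past the gene. No HCT116 summit lay within 1 kb of the start, and the nearest, 2.69 kb away, was upstream of the gene. Inside the gene the first summit was 21.98 kb from the start. From there 87 peaks reached 56.7% of the gene length, and a further 26 followed between 69.3% and 87.7%, after an empty stretch of 53.6 kb. The last 52.5 kb of the gene had no peak. Cut into 10 equal pieces from 5′ to 3′, the gene held 11, 19, 24, 17, 11, 5, 1, 18, 7 and 0 peaks, so the piece after the first 20% was the densest. The strongest peak, chr4:30820854-30822375, lay 101 kb into the gene with 6.53-fold enrichment at a −log10 q of 14.3, and the median fold of the 113 was 3.58. Counting neighbouring summits, the chain began 5.47 kb before the gene with 3 summits there, on the side of the uncharacterised gene LOC124900844, joined across a gap of 24.7 kb. Chaining up to 15 kb gave a run of 71 peaks that started 21.98 kb inside the gene and ended at 38.1%. On the 3′ side the next summits were 5 peaks outside any gene, the nearest 87.9 kb beyond the end.

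PALLD and DST, which bind the actin cytoskeleton, carried runs in different places. PALLD encodes palladin, a scaffold of stress fibres and focal adhesions, on the plus strand at chr4:168497052-168928441. It had 38 HCT116 peaks and no SW480 peak. Of these, 32 lay in 81.7 kb between 6.18% and 25.1% of the gene, and an uncharacterised RNA gene inside it, LOC124900807, contained 28 summits. The first start had no summit within 1 kb, the nearest being 6.55 kb away, whereas both inner starts did. The strongest peak was chr4:168535271-168538362 at fold 6.08. Its left flank held 9 peaks, a flank shared with DDX60 and DDX60L, and the nearest of them lay 33.2 kb from the first summit inside. The right flank held 3 peaks near CBR4 and SH3RF1.

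DST encodes dystonin, a giant protein that links actin, microtubules and intermediate filaments, on the minus strand at chr6:56457996-56954830. It had 29 HCT116 peaks and none in SW480. The main run was 18 peaks over 93.2 kb, between 40.7% and 59.4% of the interval counted from its lower coordinate, with a second chain of 6 around 77.2% to 82.3%. None of its 3 annotated starts had a summit within 1 kb, although the region of a peak with its summit 1.24 kb away covered the outermost. The strongest peak was chr6:56714573-56714934 at fold 5.27. Beyond the 5′ end the next summit was 2.70 kb from the last one inside, in a flank with BEND6, KIAA1586 and ZNF451, while the gap at the 3′ end was 172 kb.

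PHLDB2, also called LL5-beta, anchors microtubules at the cell cortex and lies on the plus strand at chr3:111732496-111976517. It held 47 peaks in HCT116 and 11 in SW480, and was the gene among the 10 with the most SW480 peaks. In HCT116, 41 peaks followed one another from 47.3% of the gene to its 3′ end, and 4 stood within the first 10%. In SW480, 4 of the 11 were in that first 10%, and none lay in the last 73.0 kb of the gene, where HCT116 peaks continued. Regions of the lines overlapped at 5 HCT116 peaks. Among them was the strongest HCT116 peak, chr3:111739146-111740420 at fold 5.90. The strongest SW480 peak, chr3:111738114-111739014 at fold 4.33, had its summit 0.286 kb from a HCT116 summit. At the 3′ end the chain took in 1 summit beyond the gene, 2.39 kb after the last one counted. It ended there, with no further summit for 64.9 kb. That summit had a fold of 7.06, above every peak inside PHLDB2, in a flank with ABHD10, TAGLN3, TMPRSS7, C3orf52, GCSAM and SLC9C1, and SW480 had a peak there too, 2.67 kb beyond the gene.

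MPP7, a membrane-associated guanylate kinase that helps to organise cell polarity and junctions, lies on the minus strand at chr10:28050993-28335203. It had 25 HCT116 peaks in chains of 15 and 10, all in the 3′ part of the gene, with none in the 117 kb next to its 5′ end. Neither annotated start had a HCT116 summit closer than 63.7 kb. Its 1 SW480 peak, chr10:28303433-28303708 at fold 3.15, lay 0.448 kb from the start at 28303064 and 85.1 kb from the nearest HCT116 summit. The lines therefore had no peak in common in MPP7. The SW480 summit also lay inside the RNA gene MPP7-DT (chr10:28303169-28306271), and without a strand the peak cannot be assigned to one or the other. The strongest HCT116 peak was chr10:28179983-28181008 at fold 4.65, and the 4 peaks of the right flank lay at least 168 kb away, on the side of WAC.

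ARHGAP29, the GTPase-activating protein, lies on the minus strand at chr1:94168905-94314592. It had 24 HCT116 peaks and none in SW480. A chain of 28 summits, 22 of them counted to the gene, ran 14.3 kb past its 5′ end. There the antisense RNA gene ARHGAP29-AS1 (chr1:94247868-94334806) overlaps it, and 20 summits lay inside that RNA gene, the last 5.96 kb before its end. Since peaks have no strand, they cannot be assigned to one or the other. Of the annotated ARHGAP29 starts, 1 of 2 had a summit within 1 kb, and 14 of the 24 peaks were on the upstream side of both. The strongest peak was chr1:94309337-94310552 at fold 4.26, the lowest maximum among the 10 genes. The right flank held 7 peaks, all inside other genes. Of these, 6 belonged to the chain of 28 and lay inside ARHGAP29-AS1. The remaining peak was 104 kb beyond the gene, on the side of ABCD3.

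Of the signalling genes, PDE4B, a phosphodiesterase that hydrolyses cAMP, lies on the plus strand at chr1:65792510-66374579. All of its 39 HCT116 peaks lay beyond 79.4% of the gene length, and none in the first 462 kb, and SW480 had no peak. The run spanned 113 kb at 34.4 peaks per 100 kb, close to the 36.4 of the main PCDH7 run. PDE4B has 6 annotated starts. The 4 toward the 5′ end were at least 262 kb from any HCT116 summit, and the other two, at 66332108 and 66354535, each had 1 summit within 1 kb. The run began 77.7 kb before the earlier of these, with 25 peaks upstream of it and 14 downstream. The strongest peak, chr1:66271514-66272396 at fold 6.43, was in the upstream group. Before the first summit of the run there was none for 833 kb, and after the last the next was 69.4 kb away, toward SGIP1.

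PPP3CA, the catalytic subunit of the calcium-dependent phosphatase calcineurin, lies at chr4:101023418-101347526. It had 31 HCT116 peaks and none in SW480. Of these, 23 formed a run over 95.1 kb between 16.5% and 45.9% of the interval, counted from the lower coordinate. A smaller chain of 9 crossed the lower end of the gene, with 5 summits counted to it and the first 14.5 kb outside. At the upper end, after an empty stretch of 145 kb, 1 summit lay inside the gene near that end, a second within 1 kb of it, and the next followed 1.24 kb on. The strongest peak was chr4:101123548-101123925 at fold 4.85. In PPP3CA the summits thus passed both gene ends, although the main run stayed inside.

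VTI1A, a SNARE protein of transport between endosomes and the Golgi, lies on the plus strand at chr10:112446988-112855368. It had 44 HCT116 peaks and 1 SW480 peak. The HCT116 run began at the start of the gene, which it shares with ZDHHC6, and 43 peaks covered the first 123 kb, or 30.1% of the length. After 88.3 kb without a peak a single one followed, and the last 197 kb had none. VTI1A held 3 of the 8 peaks with a fold over 6 among the 421, including the highest, chr10:112529219-112534301, 5083 bp wide, with 7.93-fold enrichment at a −log10 q of 29.1. The only SW480 peak, chr10:112531564-112532059 at fold 3.94, lay within that same region. The left flank held a group of 14 peaks, 12 of them inside another gene, on the side of TECTB, ACSL5 and ZDHHC6. It lay between 84.8 and 41.6 kb before VTI1A. Chaining up to 50 kb joined all 14 to the VTI1A run, whereas chaining up to 25 kb did not. The right flank held 7 HCT116 and 4 SW480 peaks on the side of TCF7L2, a transcription factor of the Wnt pathway.

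ZBTB20, a zinc finger repressor, lies on the minus strand at chr3:114314500-115147288. It had 31 HCT116 peaks and 2 in SW480. Peaks were grouped in small chains of 12, in 25.5 kb, and 8, in 26.9 kb, rather than in 1 run, and both chains lay near annotated starts in the interior. Of its 8 starts, 5 had a HCT116 summit within 1 kb. The longest empty stretch was 267 kb. The strongest peak, chr3:114744898-114745954 at fold 6.11, was near the start at 114745982. The chain of 12 also included a peak of fold 3.16 over the microRNA gene MIR4796, whose annotated position was 0.084 kb from the summit. At the outermost start both lines had a summit within 1 kb, of fold 4.47 in HCT116 and 2.65 in SW480. The other SW480 peak, chr3:114502283-114502532 at fold 3.54, lay 3.90 kb from the nearest HCT116 summit.

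**Figure D3:**
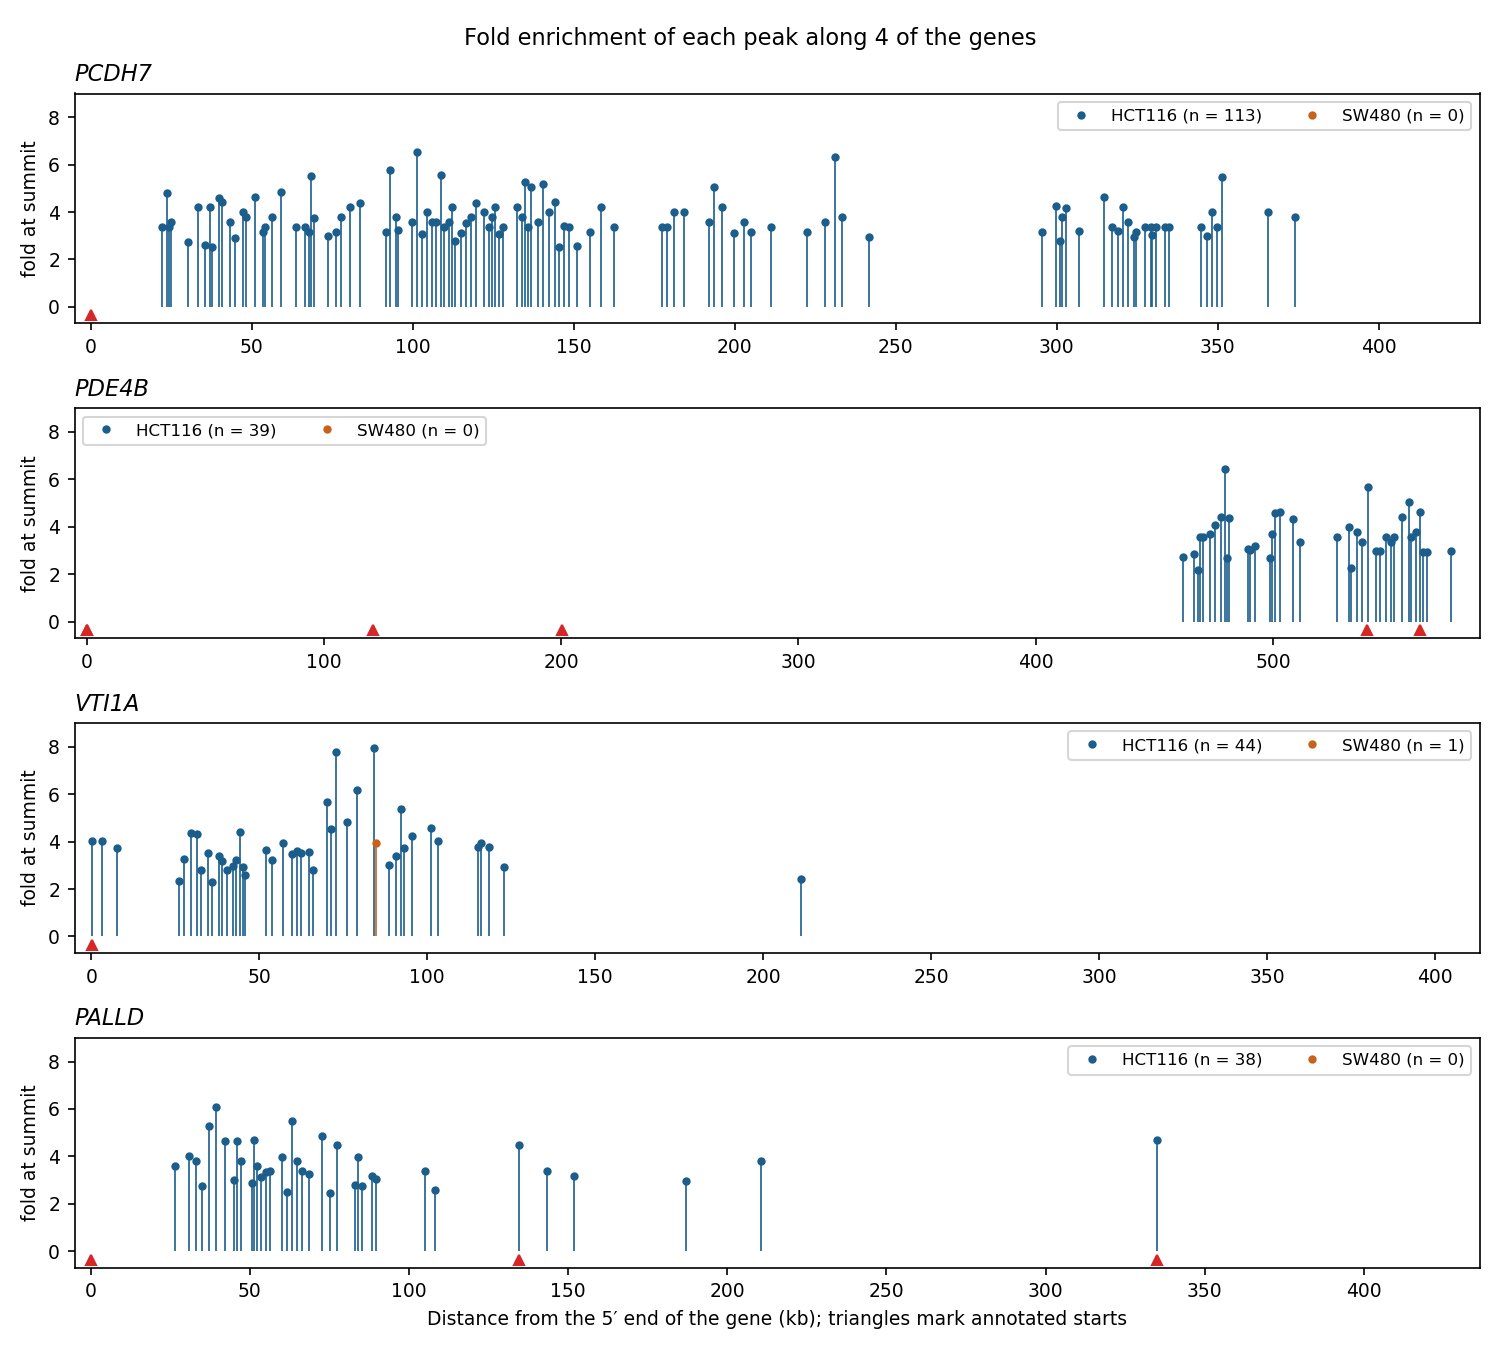
Fold enrichment of each peak (y axis) against distance from the 5′ end in kb (x axis) in PCDH7, PDE4B, VTI1A and PALLD, with triangles at annotated starts. The run fills the first 30.1% of VTI1A and the part of PDE4B after 79.4% of its length, and fold stays under 8 throughout, with the highest value, 7.93, in VTI1A.

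Taking starts together, 14 of the 30 annotated starts of 9 genes had a HCT116 summit within 1 kb, or 46.7%, in 6 genes. PCDH7, DST and MPP7 had none. The same share was 43.7% over all starts of coding genes and 29.8% over those of coding genes as long as these. In SW480 it was 5 of 30, or 16.7%, in PHLDB2, ZBTB20 and MPP7, against 23.1% and 15.6%. Starts close to each other share peaks, so these are not independent counts. Of the 390 HCT116 peaks in these 9 genes, 16 lay within 1 kb of an annotated start and 374 farther away.

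Whether summits continued past the gene ends differed from end to end. Across each of the 20 ends, the gap between the last summit inside and the first outside was measured. At 9 ends it was longer than the longest gap within that gene, and at 13 it was over 10 times the gene's median spacing. At 7 ends it was under 10 kb: both ends of PHLDB2 and PPP3CA, and the 5′ ends of ZBTB20, DST and ARHGAP29. These gaps use the outermost summits, which need not belong to a chain of at least 5. At the 5′ ends of PHLDB2 and ZBTB20 and the upper end of PPP3CA, a few summits stood apart. Empty stretches of 63.2, 267 and 145 kb separated them from the rest. The last such chain of DST ended 88.05 kb inside its 5′ end, and the VTI1A run ended 286 kb before its 3′ end. The gaps ran from 1.24 kb in PPP3CA to 833 kb in PDE4B. PDE4B and MPP7 were the only genes of the 10 where both gaps exceeded the longest one inside. Between the end of the gene and the first summit inside, under 5% of the gene length was without a peak at 10 of the 20 ends, and over 10% at 8. This empty stretch was longest on the 5′ side of PDE4B, at 79.4%, and reached 48.3% on the 3′ side of VTI1A.

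**Figure D4:**
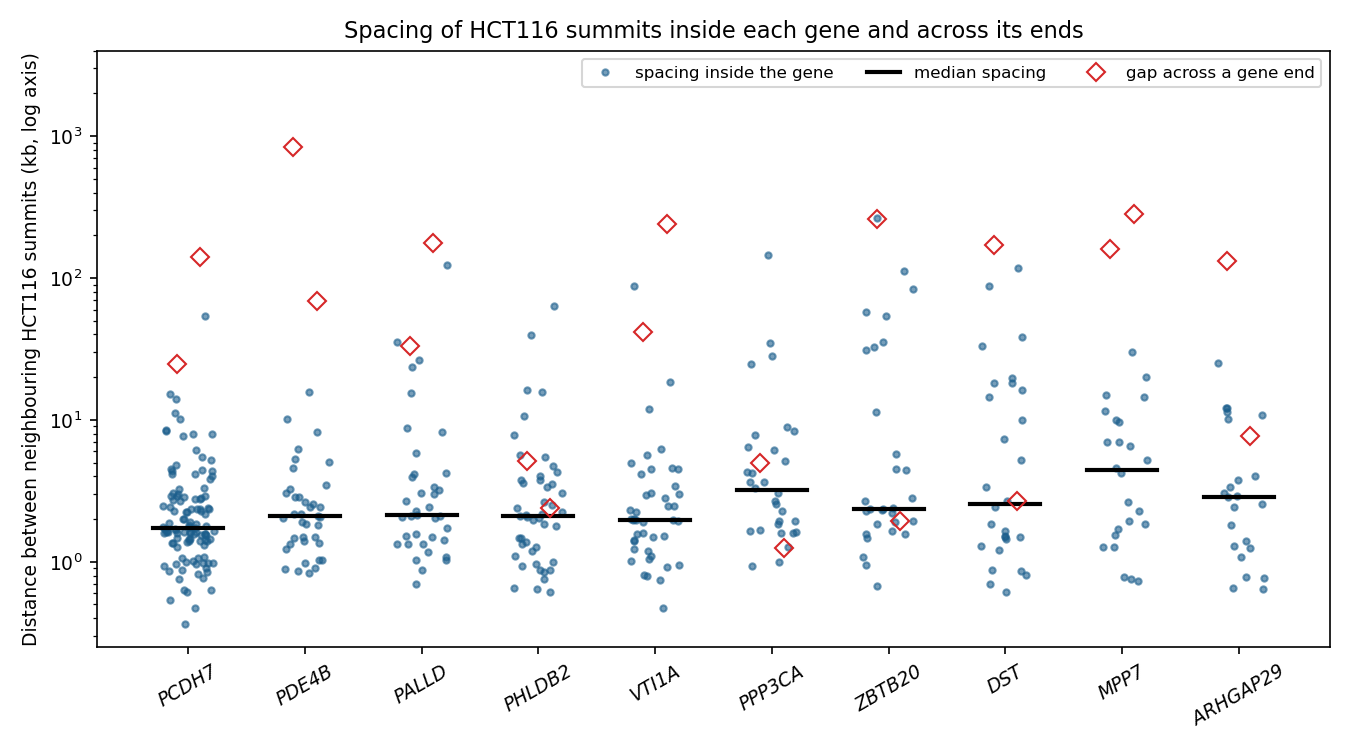
Distance between neighbouring HCT116 summits in kb, on a log axis, for each gene. Dots are spacings inside the gene, with a random horizontal offset, black bars their medians (1.74 to 4.42 kb), and diamonds the gap across either gene end; 7 of the 20 diamonds lie under 10 kb.

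Individual peaks in these genes were weak to moderate. Fold ran from 2.16 to 7.93 with a median of 3.52, and 394 of 421 peaks, or 93.6%, were under 5. For the 406 peaks more than 1 kb from any gene end, the median fold was 3.49, the median width 503 bp and the median −log10 q 3.77. The other 8139 HCT116 peaks in such positions inside genes had medians of 3.39, 469 bp and 4.19. Fold and p together give the number of fragments at the summit (the pileup) and the caller's local background. The median pileup was 18 fragments and the median background 4.02 in the 10 genes, against 21 and 5.21 in other genes. The background was at the lowest level of the list, 3.75, for 42.6% of these peaks against 14.8%. Per gene that share, over all peaks, ran from 6.38% in PHLDB2 to 67.3% in PCDH7 and 67.7% in ZBTB20. In MACS2 the background cannot fall below the average coverage over the genome, so such peaks had no higher local estimate. Its part in the number of peaks called was not tested.

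**Figure D5:**
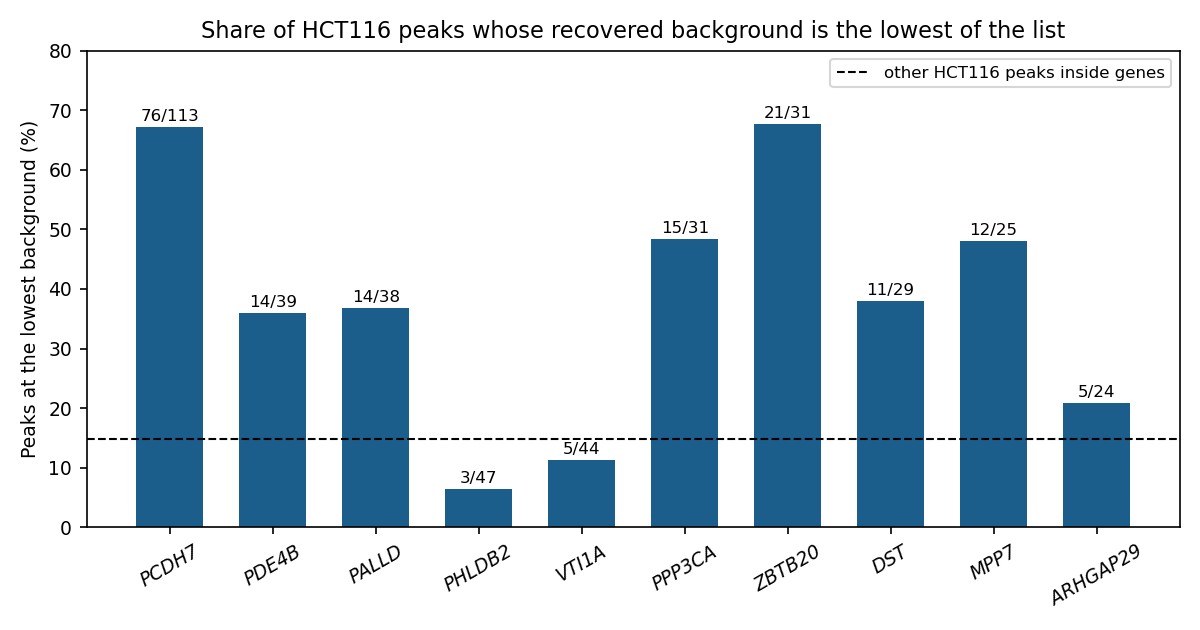
Percentage of HCT116 peaks in each gene whose recovered background is the lowest of the list (y axis, bars from 0), with the counts above the bars. The dashed line is the 14.8% of other HCT116 peaks inside genes and away from gene ends, while the bars count all peaks of a gene. PHLDB2 and VTI1A lie below the line and the other 8 genes above.

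Peak regions of HCT116 in these genes rarely had a SW480 region on them. Of the 421, 8 overlapped one by at least 1 bp, or 1.90% (95% exact binomial interval 0.824 to 3.71), 5 in PHLDB2, 2 in ZBTB20 and 1 in VTI1A. Away from gene ends the share was 1.48% (0.544 to 3.19), against 14.7% (14.0 to 15.5) for other HCT116 peaks inside genes. The 10 genes held only 15 SW480 peaks, which limits how many HCT116 peaks could overlap one. Counted from SW480, 7 of the 15 overlapped a HCT116 region, or 46.7% (21.3 to 73.4), against 49.1% over the whole SW480 list. Away from gene ends it was 6 of 13, or 46.2% (19.2 to 74.9), against 28.4% for other SW480 peaks inside genes. The genes were chosen for their HCT116 peaks, and the peaks of 1 gene share their surroundings, so these shares are a description. With no SW480 peak in PCDH7, none of its 113 peaks could overlap one.

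Close relatives of the 10 genes, from a list of 35, were also counted, most of them shorter genes. In HCT116 19 of 35 held at least 1 peak, near the 55.1% of long coding genes that did, and the median was 1 peak in both sets. In HCT116 7 held 3 or more and the highest count was 10. In SW480 11 of 35 held at least 1, beside 40.2% of long coding genes, and 7 held 3 or more. The share with 3 or more peaks was not counted over all long genes. Of 9 further delta protocadherins, PCDH1 alone had HCT116 peaks, 2 of them, and none had a SW480 peak. PLEC and MACF1, spectraplakins like DST, had 10 and 9 peaks in HCT116 and 4 and 10 in SW480. Per 100 kb PLEC had 15.7 HCT116 peaks, close to the 16.3 of ARHGAP29. PDE4D, a relative of PDE4B of 1553 kb, showed the opposite pattern, with 0 peaks in HCT116 and 23 in SW480, and PDE4A had 4 and 1. DLG1 and PALS1, scaffolds related to MPP7, had 2 and 1 in HCT116 and 7 and 3 in SW480. PPP3R1, the regulatory subunit of calcineurin, had 3 and 2, and PHLDB1 had 3 in each. Among BTB zinc finger genes, ZBTB38 had 6 and 4, and ZBTB7A had 3 and 0, the 3 amounting to 11.7 per 100 kb.

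By a distance over the log2 of HCT116 peaks, SW480 peaks and length, the 5 long coding genes outside the 10 most like PCDH7 were MSRB3, PRKACB, TANGO6, MYOF and STK39. MSRB3, a methionine sulfoxide reductase, had 21 peaks in HCT116 and 0 in SW480, at a distance of 2.65. PRKACB, a catalytic subunit of protein kinase A, had 20 and 1, TANGO6 had 15 and 1, MYOF, a membrane repair protein, had 21 and 2, and STK39 had 14 and 1. The measure rests on 1 library per line. PCDH7 stood well above each of them, at 113 peaks.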

How the data were processed

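BRD8 ChIP-seq peak lists of HCT116 and SW480 were used, 1 ChIP library per line; the inputs were left aside. Trimmomatic 0.33, Bowtie2 2.4.1, MACS2 and deepTools with GRCh38 are named per the submitters' processing notes. How reads were filtered and duplicates handled is not given in the sources used here. Each deposited list comes from 1 library, without pooling. The deposited fold enrichment is a ratio of ChIP signal to local background at the summit. The summit's −log10 p-value and −log10 q-value are also as deposited. In 99.8% of HCT116 peaks the deposited score equals the whole part of 10 times the −log10 q.

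Peaks on chromosomes 1 to 22 and X were kept, which left out 9 HCT116 and 72 SW480 peaks. Coordinates are 1-based. Gene ends were read from RefSeq's gene table (GRCh38.p14) and starts from its promoter windows. Pileup and background were solved from the deposited fold and −log10 p (pileups up to 2999, relative tolerance 0.0001), which succeeded for 99.996% and 99.99% of peaks. The lists give no read totals. Depth is seen only through the pileups, with medians of 24 and 26 fragments, and the lowest backgrounds, 3.75 in HCT116 and 4.09 in SW480. A background within 0.5% of the lowest was called lowest. Scripts ran in Python 3.11.15 with numpy 2.4.6, pandas 2.3.3 and scipy 1.17.1 and were tested on simulated data. Motifs were planned for peak sequences and searched in promoter windows only, since no genome was used here.

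The genes, the family list and the measures were chosen with earlier results of these data known. Named were the 10 genes, relatives with at least 3 peaks in either line, the 5 genes most like PCDH7, the strongest peak per gene and line, and coding neighbours in flanks with at least 3 peaks. NSMCE2, DLGAP1, SGIP1, ARHGAP29-AS1, MPP7-DT, LOC124900807, MIR4796 and PCDH1 fall outside that rule and were chosen after their values were seen. Alternatives covered the peak threshold, list length, margins, flanks, overlap and merging of summits. Left-out genes and other chaining distances were added after seeing the data.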

Additional observations from a re-analysis of the deposited data

How the results depend on the processing

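Of 36 alternative values, 22 stayed within the limits set for a stable value and 14 moved. Keeping peaks with a −log10 q of at least 5 left 128 of the 421 HCT116 peaks and 2 of the 15 SW480 peaks. The HCT116 density ratio, 5.21, became 3.39, the overlap share fell from 1.90% to 0, the median spacing widened from 2.17 to 6.81 kb and the median fold rose from 3.49 to 4.42. Fewer peaks and a cut on strength produce the changes in counts, spacing and fold by construction. PCDH7 then had 31 of its 113 peaks and ARHGAP29 3 of its 24. With the HCT116 list shortened to the length of the SW480 list, 154 peaks, a ratio of 3.86 and a spacing of 5.91 kb remained. Flanks of 100 kb gave a HCT116 ratio of 3.34, an overlap over at least 50% of the peak gave a share of 0.713%, and merging summits closer than 2 kb gave a spacing of 3.57 kb. Without PHLDB2, SW480 had 4 peaks and a ratio of 0.405. Without PCDH7, HCT116 had 308 peaks, a ratio of 4.27 and a spacing of 2.30 kb. The causes of the changes in the density ratios and overlap shares were not tested. No paired analysis was possible because each line has 1 ChIP library and no result comes from a test. Pileups of about 18 fragments per peak limit what can be said of a gene without a listed peak.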
